A study of Homo sapiens with 4 samples.

Results

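The 9 genes described here encode subunits of the Polycomb repressive complexes, and they were taken as a fixed list, of 19821 protein-coding genes examined in the same way. They are EZH2, EZH1, SUZ12, EED and JARID2 of Polycomb repressive complex 2 (PRC2), and RNF2, BMI1, CBX2 and CBX8 of Polycomb repressive complex 1 (PRC1). For each gene, ChIP-seq peaks of the histone mark H3K27ac and of SMARCB1 were read from the gene record and 10 kb on each side of it (the window), and the base pairs (bp) under peaks were summed. All libraries came from SK-Hep1, an established human line that the labels class as hepatic adenocarcinoma. One H3K27ac library was made from cells with a control shRNA (control) and another from cells with an shRNA against SMARCB1 (knockdown), which encodes a subunit shared by SWI/SNF chromatin remodellers. Cells that expressed an shRNA had been selected with puromycin. A single library profiled SMARCB1 itself, in cells whose shRNA the labels do not name. With 1 library per group, no difference below could be checked against replicates, and the conditions were not tested against each other. The knockdown itself was not checked here, since peak lists do not measure SMARCB1 RNA or protein.

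PRC2 methylates the lysine of histone H3 that carries H3K27ac in active chromatin, so methylation and acetylation cannot occupy the same lysine side chain. EZH2 and EZH1 are its alternative catalytic subunits, SUZ12 and EED are needed for its activity, and JARID2 is an accessory subunit that helps to recruit it. PRC1 ubiquitinates histone H2A through RNF2 (RING1B), which pairs with a PCGF protein such as BMI1, and the chromobox proteins CBX2 and CBX8 bind methylated histone H3. Polycomb and SWI/SNF proteins are known as antagonists at many developmental genes. The values below concern acetylation at the genes that encode the Polycomb proteins, not the places where those proteins bind.

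H3K27ac was called with 13235203 tags in the control library and 10203310 in the knockdown, a ratio of 1.30, and with fragment lengths of 190 and 158 bp. Peaks covered 0.892 times as many base pairs genome-wide in the knockdown as in the control. The lists give no peak height that varies, so covered length is the only size used here, and peak calling sets it. How far depth and fragment length shaped the lengths was not tested. Among hepatocyte markers, ALB, APOA1, APOB, TTR and HNF4A had no H3K27ac in their windows in either library. SERPINA1 (5012 and 5461 bp), AFP (2159 and 1060 bp) and FOXA1 (3657 and 2671 bp) were acetylated in both, with the control value first, and FOXA2 had 1002 bp in the knockdown only. All 5 mesenchymal markers were acetylated in both (54632 and 41514 bp), as were CDH5, VWF and ERG of 7 endothelial markers (13871 and 17159 bp over the 7, with PECAM1 at 0 and 900 bp and KDR, TEK and CLDN5 at 0). Of the keratinocyte markers, TP63 was acetylated in both (4965 and 3923 bp), and the keratins KRT5 (3695 bp) and KRT17 (1002 bp) in the knockdown only. The 5 summed to 4965 bp in control cells and 8620 bp after knockdown, with KRT14 and KRT6A at 0 in both. In the SMARCB1 library, 4 of the 5 keratinocyte markers had peaks in their windows, against 23.3% of all coding genes. These peaks covered 6704 bp at KRT17, 6020 bp at KRT5, 4077 bp at KRT14 and 3080 bp at KRT6A, although KRT14 and KRT6A had no H3K27ac. The median width of a SMARCB1 peak was 500 bp. Of the 5 leukocyte markers 4 were acetylated in both (31821 and 30060 bp in sum), with CD3E at 0. By the same window, 74.5% of all coding genes had H3K27ac in both libraries. Peaks counted at any marker can belong to a neighbouring gene in its window. PTPRC was shorter in the knockdown (22777 and 19991 bp), and CD79A, CD14 and SPI1 were longer. The labels give the same cell line for all libraries, and these marker values do not show that other cell types were present. Whether they all arise from that line was not tested. The bearing of the marker values on the values below was not tested either.

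All 9 Polycomb genes carried H3K27ac in both libraries, as did 74.5% of protein-coding genes. No member differed by more than 1.5-fold in covered length. Among the 15412 coding genes with H3K27ac in either library, 12.0% were over 1.5-fold lower in the knockdown and 3.75% over 1.5-fold higher. Unlike the members, these include 407 genes covered in the control only, counted as lower, and 238 covered in the knockdown only, counted as higher. Covered length was shorter in the knockdown at 7 of the 9, against 76.0% of the 15412 genes. Ratios lay below 1 at 4 of the 9 once divided by the median of all genes, 0.889 (a log2 shift of -0.17). The count of shorter members was thus near the share among all genes. The knockdown-over-control ratio of the members had a median of 0.916 and ran from 0.762 at JARID2 to 1.03 at SUZ12. Of all coding genes with H3K27ac in both libraries, the middle 50% lay between 0.787 and 0.991. JARID2 alone of the members lay below that range, while SUZ12 and CBX8, and EED at 0.996, lay above it.

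**Figure D1:**
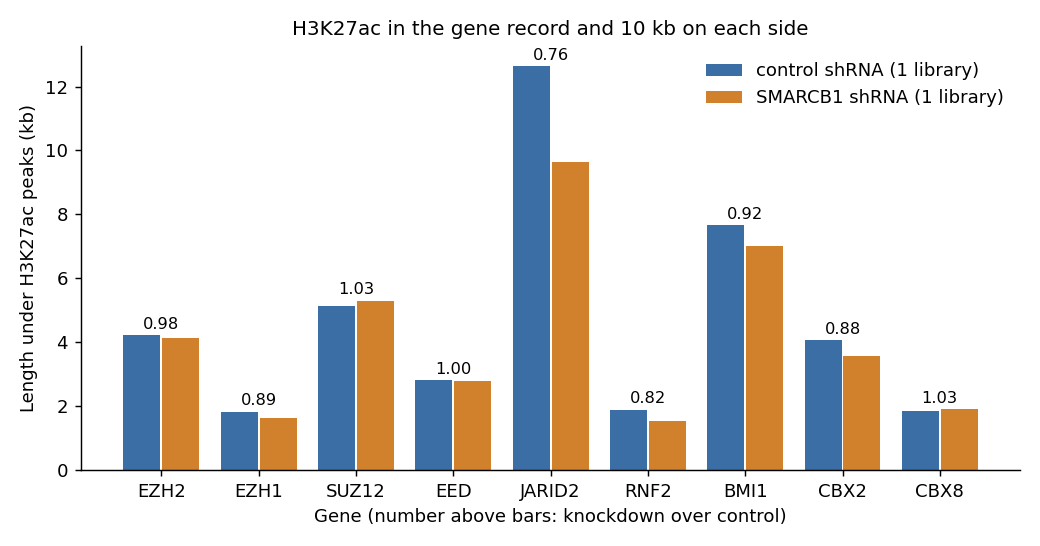
Length under H3K27ac peaks in each gene record and 10 kb on each side (kb), with 1 library per bar. The largest difference in length is at JARID2, which had 12638 bp in control cells and 9635 bp after knockdown, a ratio of 0.762. RNF2 had the next lowest ratio, 0.818.

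**Figure D2:**
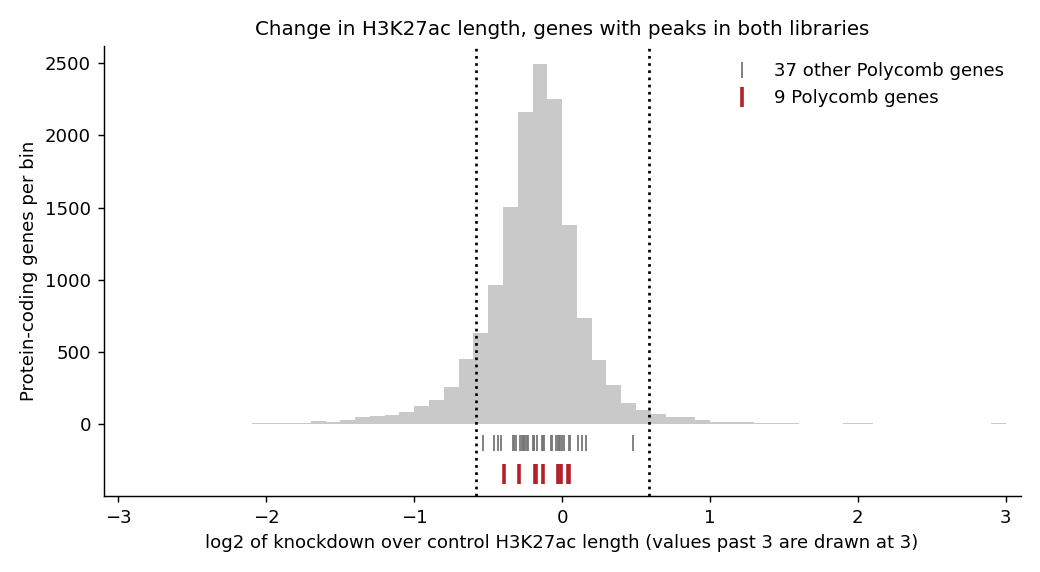
Histogram of the log2 ratio of knockdown to control H3K27ac length over the 14767 coding genes with peaks in both libraries, with ticks for the 9 members and 37 other Polycomb genes, and dotted lines at 1.5-fold. All ticks lie between the dotted lines, and the bulk of the histogram lies left of 0.

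The gene starts of 7 members are listed in the RefSeq promoter table of GRCh38.p14, and a single peak in each library covered each of those starts. CBX2 and CBX8 have no entry there. Printed below are the 250 bases before the start of EZH2 and EZH1, the alternative catalytic subunits, of EED, whose SMARCB1 peak reaches into this stretch, and of RNF2, whose start peak had the lowest ratio of widths. All 4 lie wholly under H3K27ac in both libraries. They run 5′ to 3′ in the direction of transcription and end at the base before the start. Capitals mark matches on either strand to the 11 short motifs described next.
EZH2, chr7:148884292-148884541, minus strand: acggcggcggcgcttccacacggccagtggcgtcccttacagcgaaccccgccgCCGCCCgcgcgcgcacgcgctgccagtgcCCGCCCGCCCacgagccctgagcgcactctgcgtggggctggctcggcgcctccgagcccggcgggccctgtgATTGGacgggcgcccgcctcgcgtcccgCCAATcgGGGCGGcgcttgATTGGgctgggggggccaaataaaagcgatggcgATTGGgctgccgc
EZH1, chr17:42745041-42745290, minus strand: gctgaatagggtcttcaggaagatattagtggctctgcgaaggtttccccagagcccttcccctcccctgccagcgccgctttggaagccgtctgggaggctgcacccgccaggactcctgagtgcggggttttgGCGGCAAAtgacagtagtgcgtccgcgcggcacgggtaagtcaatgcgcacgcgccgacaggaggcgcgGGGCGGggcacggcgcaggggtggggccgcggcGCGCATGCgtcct
EED, chr11:86244503-86244752, plus strand: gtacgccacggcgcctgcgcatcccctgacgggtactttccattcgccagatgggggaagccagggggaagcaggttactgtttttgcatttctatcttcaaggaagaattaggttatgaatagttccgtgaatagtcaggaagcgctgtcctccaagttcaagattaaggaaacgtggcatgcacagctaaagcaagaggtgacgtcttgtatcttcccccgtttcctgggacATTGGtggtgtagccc
RNF2, chr1:185045308-185045557, plus strand: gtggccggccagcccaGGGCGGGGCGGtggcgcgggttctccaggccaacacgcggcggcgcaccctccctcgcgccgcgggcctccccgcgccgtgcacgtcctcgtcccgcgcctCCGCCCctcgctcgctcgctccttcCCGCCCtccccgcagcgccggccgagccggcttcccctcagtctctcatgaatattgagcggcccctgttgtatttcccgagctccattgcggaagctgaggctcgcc

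Of the motifs searched, that of SP and KLF factors (GGGCGG) was present before the start of 6 of the 7 members, all but EED, and in 55.8% of 15812 promoters of coding genes, read over the same 250 bases. The CCAAT box, searched by the letters of its name, was present at EZH2, SUZ12, EED and JARID2, and in 34.4% of promoters. At EZH2, 4 copies of each were found, and neighbouring SP and KLF matches overlap there, at RNF2 and at BMI1. The letters of the E2F motif (TTTNNCGC) lay before EZH1 and SUZ12 and in 7.67% of promoters. Those of NRF1 (GCATGCGC), part of its longer site, lay before EZH1 and in 3.73% of promoters. The E-box (CACGTG) occurred at BMI1 alone among the 7, against 7.79% of promoters. The TEAD motif (GGAATG) was likewise found at BMI1 alone, against 10.2% of promoters. The letters of the TATA box (TATAAA) were found at JARID2 alone, at positions -124 to -119 from the start, against 9.36% of promoters at any position. None of the 7 held the ETS motif (CCGGAAGT, 5.10% of promoters), the YY1 motif (AAGATGGCG, 0.759%) or the cyclic AMP response element (TGACGTCA, 2.29%). The AP-1 motif (TGANTCA) was also found in none of the 7 and in 5.00% of promoters. These matches are letters only and show no binding. CpG dinucleotides were near the number that base composition gives at EZH2 (observed over expected 1.06), SUZ12 (1.03), RNF2 (1.02) and BMI1 (1.02), each above at least 90.6% of promoters. The ratio was 0.922 at EZH1, 0.839 at JARID2 and 0.677 at EED, against a median of 0.735. EED also had the lowest share of G and C of the 7, at 51.2% (median of promoters 62.0%).

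The peak over the start was present in both libraries at all 7 members, against 59.1% of coding genes with a listed start. It was narrower in the knockdown at 6 of the 7 (77.5% of the 9351 genes with such a peak in both) and past 1.5-fold at 0 of the 7 (8.45%). The ratio of widths had a median of 0.909 over the members and 0.908 over those genes. The edges moved by little: the upstream edge of the members lay a median of 178 bp further out in the control (102 bp over all genes) and the downstream edge 121 bp (108 bp).

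**Figure D3:**
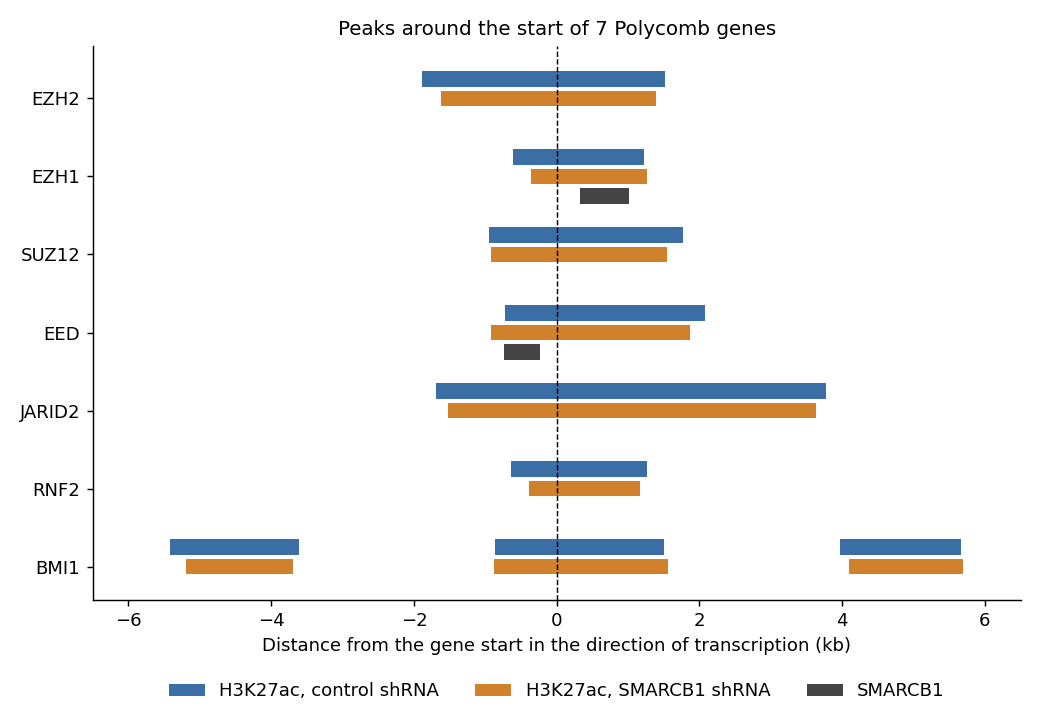
Peaks around the start of 7 members, with distance from the start in the direction of transcription (kb) and 1 row per library. Each start lies under a peak in both H3K27ac libraries, and SMARCB1 peaks are drawn at EZH1 and EED alone. BMI1 is flanked by another peak on each side.

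The catalytic subunits of PRC2 each had a peak over the start in both libraries, and EZH2 had another inside the gene. EZH2, on chromosome 7 from 148807383 to 148884291, had 4217 bp under H3K27ac in control cells and 4142 bp after knockdown. Its start peak was 3394 bp wide in control cells and 3017 bp after knockdown, and reached into the record of the non-coding RNA gene LOC124901767. A second listed start of EZH2, 806 bp downstream, lay under the same peak. Another region inside the gene, from 148819681 to 148820503 in the control, was 823 bp wide there and 1125 bp in the knockdown, with 698 bp covered in both. This region lies 63788 bp from the start at its nearer edge in the control. CUL1, which encodes a ubiquitin ligase scaffold, lies 6273 bp from EZH2, and no peak of either library lay in the shared stretch. The nearest SMARCB1 peak was 143913 bp from the gene.

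EZH1, on chromosome 17 from 42700275 to 42745040, had a single peak in each library, of 1833 bp in control cells and 1625 bp after knockdown. The upstream edge lay 605 bp before the start in control cells and 364 bp after knockdown, and the downstream edge 1227 and 1260 bp after it. A SMARCB1 peak of 690 bp (chromosome 17, 42744030 to 42744719) lay wholly inside both H3K27ac peaks, 321 to 1010 bp after the start. The authors classed it as intron. Its value in the authors' list, in a unit that no source used here states, was 18.5, rank 687 of 4453, while the other members' SMARCB1 peaks had values from 8.98 to 10.6. The neurexin-family gene CNTNAP1 lies 282 bp from EZH1, and its shared stretch held no peak.

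The start peaks of the core subunits SUZ12 and EED were 0.909 and 0.996 times as wide in the knockdown as in the control. SUZ12, on chromosome 17 from 31937007 to 32001038, had 5129 bp in control cells and 5308 bp after knockdown. Its start peak was 2713 bp and 2466 bp wide, and a region 36985 bp into the gene was 652 and 631 bp wide. The longer total in the knockdown came from a peak of 501 bp, the narrowest width in the list, at 31954005 to 31954505, which had no control counterpart. A further shared peak, of 1764 and 1710 bp, lay over the starts of LRRC37B and LOC124903972, outside SUZ12, so it belongs to the window rather than to the gene. The nearest SMARCB1 peak was 77493 bp away.

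EED, on chromosome 11 from 86244753 to 86287615, had a single peak in each library, of 2807 bp in control cells and 2797 bp after knockdown. The whole peak was displaced upstream in the knockdown: the upstream edge lay 729 bp before the start in control cells and 925 bp after knockdown, and the downstream edge 2077 and 1871 bp after it. A SMARCB1 peak of 500 bp (86244021 to 86244520), classed promoter-TSS by the authors, ran from position -732 to -233 relative to the start. The control peak covered 497 bp of it and the knockdown peak all 500. Its value was 9.51, which 602 peaks shared, at rank 3333.

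JARID2, on chromosome 6 from 15246069 to 15522042, is the longest member and had the largest difference, 12638 bp in control cells and 9635 bp after knockdown. The peak over its start changed little, from 5474 to 5161 bp, and also covered the starts of the antisense gene JARID2-AS1, the divergent transcript JARID2-DT and a second JARID2 start 2786 bp downstream. The control peak was wider than 92.5% of control start peaks of coding genes. Away from the start, the control had 7164 bp in 4 peaks and the knockdown 4474 bp in 3, a ratio of 0.625. Of 6301 genes with acetylation away from the start peak, 20.0% were over 1.5-fold lower there and 10.1% over 1.5-fold higher. The median ratio there was 0.891 over the 5546 genes with such acetylation in both libraries.

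**Figure D4:**
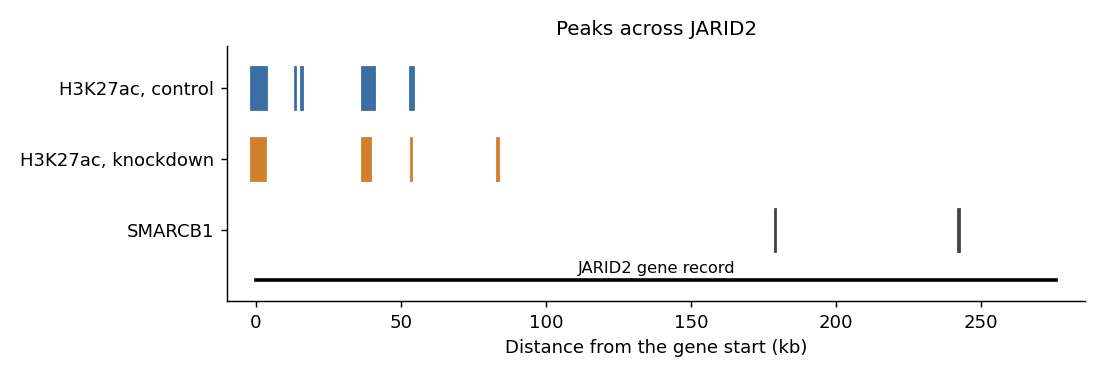
H3K27ac peaks of both libraries and SMARCB1 peaks across JARID2, as distance from the gene start (kb). H3K27ac ends 54669 bp from the start in control cells and 83826 bp after knockdown, and the SMARCB1 peaks lie 178866 and 242084 bp from it.

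Inside JARID2, the widest intragenic region ran from 15282603 to 15287276 in the control, 4674 bp, and was 3193 bp in the knockdown, which ended at 15285818. A region 53311 bp from the start went from 1359 to 632 bp. Control peaks of 501 and 630 bp, 13334 and 15708 bp from the start, had no counterpart in the knockdown, and a knockdown peak of 649 bp 83178 bp from the start had none in the control. The 2 SMARCB1 peaks of JARID2, 500 bp each at 15424935 to 15425434 and 15488153 to 15488652, were classed intron and overlapped no H3K27ac in either library. The nearest H3K27ac peak of any library was 95040 bp from the former and 120014 bp from the latter. A record of at least 200000 bp held a SMARCB1 peak in its window for 24.9% of 1396 coding genes. DTNBP1, a subunit gene of the BLOC complex that forms lysosome-related organelles, lies 765 bp beyond the far end of JARID2, and no peak lay there within the window.

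Of the 4 PRC1 members, BMI1 had the longest H3K27ac coverage, and RNF2 and CBX8 had the shortest. RNF2, on chromosome 1 from 185045558 to 185102603, had 1 peak per library, of 1897 bp in control cells and 1551 bp after knockdown, a ratio of 0.818. Its knockdown peak lay wholly inside the control peak, with the upstream edge 252 bp and the downstream edge 94 bp further in. The nearest SMARCB1 peak was 135620 bp away. No other coding gene lay in its window.

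BMI1, on chromosome 10 from 22321099 to 22331706, had 7668 bp in control cells and 7025 bp after knockdown, or 25.1% and 23.0% of its window. Its start peak was the only one among the 7 that was wider in the knockdown, 2367 bp against 2445 bp, and both edges lay further out there. A second listed start of BMI1, 857 bp downstream, lay under it. A region inside the gene, 3967 to 5671 bp from the start in the control, was 1705 and 1602 bp wide. The peak upstream, of 1803 and 1494 bp, lay over the start that COMMD3, a COMM-domain gene, shares with the COMMD3-BMI1 readthrough gene. A peak 18815 bp downstream of the BMI1 start in the control was 1842 and 1567 bp wide, and part of it passed the window's edge. The nearest SMARCB1 peak was 785941 bp away, the longest distance among the members.

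CBX2 and CBX8 are neighbours on chromosome 17, 4149 bp apart, and their windows share peaks, so their values are not separate observations. CBX2 runs from 79777311 to 79787983 and CBX8 from 79792132 to 79797077. The peak at CBX2 was 2226 bp wide in the control (79777141 to 79779366) and 1760 bp in the knockdown (79777335 to 79779094). It thus passed the lower end of the CBX2 record in the control and began inside the record in the knockdown. The peak over the upper end of CBX8 was 1857 bp wide in control cells and 1909 bp after knockdown. Counted over whole windows, CBX2 had 4065 and 3580 bp, most of the CBX8 peak included, and CBX8 had 1857 and 1909 bp. A single SMARCB1 peak of 500 bp (79791047 to 79791546, value 10.6, classed intergenic) lay between the 2 genes, 3064 bp from CBX2 and 586 bp from CBX8, with the nearest H3K27ac at least 4599 bp away.

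Across the members, SMARCB1 peaks lay in the windows of 5 of 9, EZH1, EED, JARID2, CBX2 and CBX8, against 23.3% of all coding genes and 30.3% of those with H3K27ac in both libraries. These were 5 distinct peaks, since CBX2 and CBX8 shared 1 and JARID2 had 2. Within 1 kb of a listed start, 2 of 7 members had a SMARCB1 peak, against 11.5% of coding genes with a listed start. All 7 member starts lay under H3K27ac in both libraries, against 59.1% of those genes, so the sets compared are unlike. With the gene record alone in place of the window, 2 of the 9 (EZH1 and JARID2) held a SMARCB1 peak, against 15.8% of all coding genes. When only peaks in the higher 50% of the authors' values were kept, EZH1 alone had one in its window, against 15.0% of all coding genes. The ratios of H3K27ac length at these 5 genes were 0.887, 0.996, 0.762, 0.881 and 1.03 in the order above, and at the 4 without a SMARCB1 peak 0.982 (EZH2), 1.03 (SUZ12), 0.818 (RNF2) and 0.916 (BMI1). The ranges of the 2 sets overlap.

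Over the distinct windows, H3K27ac covered 40272 bp in control cells and 35752 bp after knockdown. Each library had 19 distinct peaks there. Of these, 2 control peaks (10.5%) had no overlapping knockdown peak and 2 knockdown peaks (10.5%) had no control peak, against 17.7% and 12.2% of all peaks. All 4 were between 501 and 649 bp wide and lay inside SUZ12 or JARID2.

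The other genes of the pathway were taken from a list of 40: PRC2 accessory and partner subunits, other PRC1 subunits, and enzymes or partners that remove Polycomb marks. H3K27ac was present in both libraries at 37 of the 40, against 74.5% of all coding genes. It was present in neither at EZHIP, an inhibitor of PRC2, AUTS2, a PRC1 partner in neurons, and ASXL3, a partner of the deubiquitinase BAP1. None of the 37 differed by over 1.5-fold. Among the 15412 genes with H3K27ac in either library, 12.0% were lower and 3.75% higher, and these counts include genes covered in 1 library only. The median ratio of the 37 was 0.889. Of the 37, 29 were shorter and 8 longer in the knockdown, a share near the 76.0% of the 15412 genes. By group, the median was 0.863 for 8 PRC2 genes, 0.911 for 23 PRC1 genes and 0.928 for 6 genes that remove Polycomb marks. The lowest ratio was at PHF19, a Tudor-domain PRC2 subunit, with 8139 bp in control cells and 5617 bp after knockdown (0.690). The highest was at its relative MTF2, with 4257 and 5930 bp (1.39). These were named for their values. The longest coverage was at BCOR, a subunit of a variant PRC1, with 23340 and 20500 bp, and at PHC2, a Polyhomeotic homologue, with 17204 and 14604 bp.

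**Figure D5:**
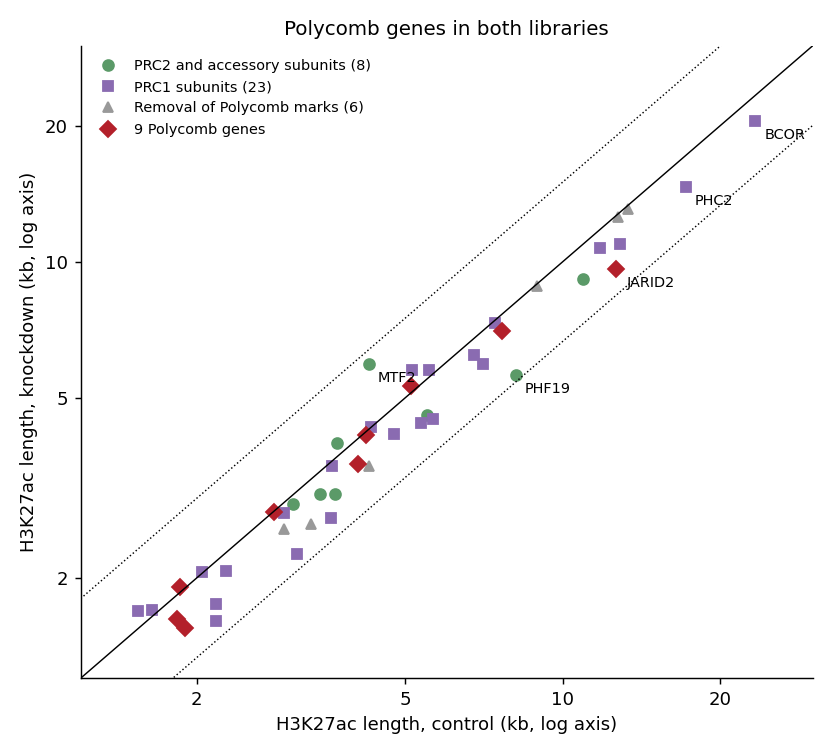
H3K27ac length in the control (x axis) and knockdown (y axis), in kb on log axes, for the 9 members and the 37 other Polycomb genes with peaks in both libraries. The solid line marks equal length and the dotted lines 1.5-fold, and every point lies between the dotted lines, with PHF19 nearest the lower one and MTF2 nearest the upper one.

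SMARCB1 peaks lay in the windows of 13 of these 40 genes: RBBP4, RBBP7, PHF1, EPOP, RING1, PCGF2, PCGF6, PHC2, KDM2B, BCOR, SCMH1, E2F6 and ASXL1. The shares over all genes were 23.3% of coding genes and 30.3% of those with H3K27ac in both libraries. Of their 18 SMARCB1 peaks, 13 overlapped control and 12 overlapped knockdown H3K27ac. The share of all SMARCB1 peaks that overlapped H3K27ac was not counted, so these counts cannot be called high or low. At RBBP7, a histone-binding PRC2 subunit, a SMARCB1 peak of 633 bp spanned the start, from position -336 to 296. SMARCB1 peaks of 500 bp also spanned the starts of SCMH1 and E2F6, a repressor that recruits a variant PRC1. In the window of RING1, the paralogue of RNF2, a SMARCB1 peak of 663 bp lay at positions -8057 to -7395 from the start. It was under H3K27ac in both libraries, in a region apart from the start peak. Another SMARCB1 peak of 500 bp lay under none. The H3K27ac length of the window was 7054 bp in control cells and 5935 bp after knockdown, with start peaks of 1816 and 1696 bp. Peaks in these windows can belong to neighbouring genes.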

How the data were processed

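The deposited values are peak positions and contain no counts per gene. Bowtie2 and HOMER are named, with hg38, per the submitters' processing notes. Per their headers, the H3K27ac lists came from HOMER findPeaks in histone style, with 1 library called at a time. Both were called against the control input. The caller was set to 500 bp for size, 1000 bp for spacing and 4-fold for enrichment over input. Listed widths nevertheless ran from 501 to 51000 bp in the control and from 501 to 38177 bp in the knockdown. Some listed peaks lay under 1000 bp apart, as at PHF19 in the knockdown. The deposited score is 1 for every H3K27ac peak and was not used. SMARCB1 values and classes are the authors' own, and were used to rank or describe only.

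Autosomal and X peaks were used, which left out 3 in each H3K27ac list. Positions are 1-based in hg38. RefSeq records of GRCh38.p14 gave 19821 coding genes, 153 on other sequences having been left out. The outermost start listed in the promoter table was used for each gene. The 250 promoter bases before it were searched by letters. Covered lengths of all 19821 genes were the same in bedtools 2.31.1, and the code was tested on simulated data. Python 3.11.15, NumPy 2.4.6, pandas 2.3.3 and matplotlib 3.10.9 were used. The members and lists were chosen with earlier results of these data known. All members were named, with, from the other list, genes past 1.5-fold (none), the 2 of longest coverage, those acetylated in neither library and those with SMARCB1 peaks, and the coding neighbours. The input library was not analysed here, and 1 hepatocyte marker is not reported here.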

Additional observations from a re-analysis of the deposited data

How the results depend on the processing

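Of 81 recomputed member ratios, 80 stayed within 1.5-fold, under other windows (the record alone, 5 kb or 25 kb), wider peaks only, merged peaks, whole peak widths, division by the median of all genes, and 2 other fold limits, which leave the ratios as they are. With the wider 50% of each list (from 1707 and 1601 bp), 1 member, RNF2, passed 1.5-fold with a ratio of 0, because its knockdown peak of 1551 bp lay under the limit. Of the other Polycomb genes, 6 passed 1.5-fold under that limit: PHF19 (0.438), BCORL1 (0.582) and USP16 (0.464) lower, CBX7 (1.80) higher, and PCGF3 and SCML2 covered in the knockdown only. With a limit of 5 to 4 in length in place of 1.5-fold, 1 member, JARID2, passed. After division by the median of all genes, 4 members lay below 1. With the record alone, the ratio was 1.08 at EZH2, 1.03 at EZH1 and 0.980 at CBX8, on the other side of 1 from the values with 10 kb. The same held with 25 kb for EED (1.02) and CBX8 (0.900), with the wider peaks for SUZ12 (0.933), and after division by the median for EZH2, EED and BMI1. With the record alone, 2 members (EZH1 and JARID2) held a SMARCB1 peak. With the higher 50% of SMARCB1 values, 1 member held one. Requiring an overlap of 50% of the narrower peak left the peaks without a counterpart at 2 in each library. No paired analysis was possible because each group had 1 library. Depth, fragment length and the shared control input limit what covered length can show, and RNA and protein levels were not analysed here.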

Other observations

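At some Polycomb genes outside the 9 members, the H3K27ac peak over the start was called as separate pieces in the knockdown. These genes were picked after their values were seen, and the share of all genes with such pieces in either library was not counted. At BCORL1, a partner of variant PRC1, the start peak was 4605 bp wide in the control, and in the knockdown the same stretch held peaks of 776 and 2679 bp, with the window total going from 5642 to 4492 bp. At PHC2 the start peak was 4491 bp wide in the control, and in the knockdown the piece over the start was 1165 bp, beside another of 2700 bp. The start peak of PHF19, of 4984 bp in the control, was also in pieces in the knockdown, of 696 and 3562 bp. The PHF19 window total fell from 8139 to 5617 bp, a ratio of 0.690, against 0.715 for the piece over the start. At BCORL1 and PHC2 the window total changed less than the start peak did. The ratios were 0.796 against 0.169 at BCORL1 and 0.849 against 0.259 at PHC2. The reverse was seen inside KDM6A, away from the start, where a single knockdown peak of 1272 bp overlapped control peaks of 501 and 685 bp. BCORL1 and PHC2 were the 2 of 32 other Polycomb genes with a start peak in both libraries whose start peak differed by over 1.5-fold, against 8.45% of all genes with such a peak. At PHC1 a control peak of 1648 bp began at position -23 relative to the start, and the knockdown peak of 1478 bp began 112 bp after it, so the start itself was covered in the control alone. Why the peaks were called in pieces was not tested.

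At MTF2, a PRC2 subunit, the start peak spread on both sides in the knockdown, from positions -737 to 3519 in the control to -1393 to 4035, relative to the start. A knockdown peak of 501 bp lay further into the gene with no control counterpart. At PHF19 the region from 5805 to 8959 bp after the start in the control was 3155 bp wide, and 1359 bp of it was left in the knockdown.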
